A study of Mus musculus with 21 samples.

Results

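The genes of the TGF-β and BMP pathway were followed in fetal mouse lung after exposure of the mothers to cigarette smoke (CS) or filtered air (AIR). All genes were taken whose symbol, on a probe set that carries 1 gene symbol, begins with Tgfb, or with Bmp, Gdf, Inhb, Acvr or Smad followed by the letters or numbers of the family. This gave 51 of 22180 genes, namely 3 TGF-β ligands, 10 BMP ligands, 8 GDF ligands, 4 activin and inhibin β subunits, 7 type I receptors, 4 type II receptors, 1 co-receptor, 8 Smads and 6 other products that bear a family name. Each gene was represented by its probe set with the highest mean over the 21 arrays, and Gdf5 alone had more than 1 such probe set. Gdf1, whose probe set is shared with another gene, and Gdf15 were not analysed here.

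The lungs came from wild-type Balb/c fetuses, taken at E18.5 and each measured on its own Affymetrix array. Mothers of the CS group inhaled cigarette smoke from gestational day 2.5 to 17.5, and 12 of their fetuses were measured, 6 males and 6 females. Mothers of the AIR group breathed filtered air over the same days by the protocol, although the sample labels call them untreated, and 9 of their fetuses were measured, 5 males and 4 females. Another 3 AIR arrays were left out by the authors after quality control. Each litter gave a male and a female that cannot be matched from the labels, so p-values over all 21 fetuses treat littermates as independent and can be too small, whereas within 1 sex no litter is represented more than once.

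Values are log2 intensities after robust multi-array averaging (RMA), on which a difference of 1 is a doubling of the signal. The lowest values lie near the background of the array, and the number of arrays limits the precision. A gene was called higher or lower at the study threshold when the absolute fold change was over 1.2, which is 0.26 on the log2 scale, with an unadjusted limma p under 0.05. Adjusted p-values were computed over 40543 probe sets, and at a false discovery rate of 10% no probe set differed between CS and AIR, the lowest adjusted p being 0.348. Unadjusted p was under 0.05 for 3037 probe sets. Exact p-values come from a 2-sided permutation test over all regroupings of the fetuses, for 1 gene at a time and without adjustment over genes. Each label carries an animal number, and at their widest gap the numbers fall into a lower range (8 CS and 3 AIR fetuses) and a higher range (4 CS and 6 AIR fetuses). What the numbers stand for is not given, and the ranges are reported beside the pooled values. Each range holds fetuses of both sexes, so its p-values can also count littermates as independent and be too small. Lung markers were present on every array, with Sftpc between 11.2 and 11.7 and Nkx2-1 between 6.05 and 6.67. Markers of heart muscle, thymocytes, oesophagus or liver lay more than 1 above the median on 12 of the 21 arrays, which leaves 7 CS and 2 AIR arrays without them, 1 of which, CS female 12, had skeletal muscle markers 1.19 above the median. These are whole-lung samples, in which fewer cells of a type and less RNA per cell cannot be told apart.

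TGF-β, BMP, GDF and activin ligands are secreted dimers that bring together type II and type I receptor kinases at the cell surface. The type I receptor then phosphorylates receptor Smads, Smad2 and Smad3 for TGF-β and activin and Smad1, Smad5 and Smad9 for BMP, which join Smad4 and enter the nucleus, while Smad6 and Smad7 inhibit the signal. In the developing lung BMP4 acts in branching of the distal epithelium, TGF-β acts in the mesenchyme, matrix and smooth muscle, and the receptor ALK1, encoded by Acvrl1, serves endothelial cells.

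Of the 51 genes, 1 was higher and 4 were lower in CS-exposed lungs at the study threshold. Over all probe sets this threshold called 4.41%, of which 2.22% were higher and 2.19% lower. Tgfb2 was the gene with the higher signal, and Bmp3, Tgfb1, Acvrl1 and Gdf2 were lower. None passed a false discovery rate of 10%, with a lowest limma adjusted p of 0.459 among the 51, and 6 had an unadjusted p under 0.05 against 7.49% of all probe sets. The median difference of the 51 genes was -0.05, with 16 above 0 and 35 below 0, beside a median of 0.000944 over all probe sets.

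**Figure D1:**
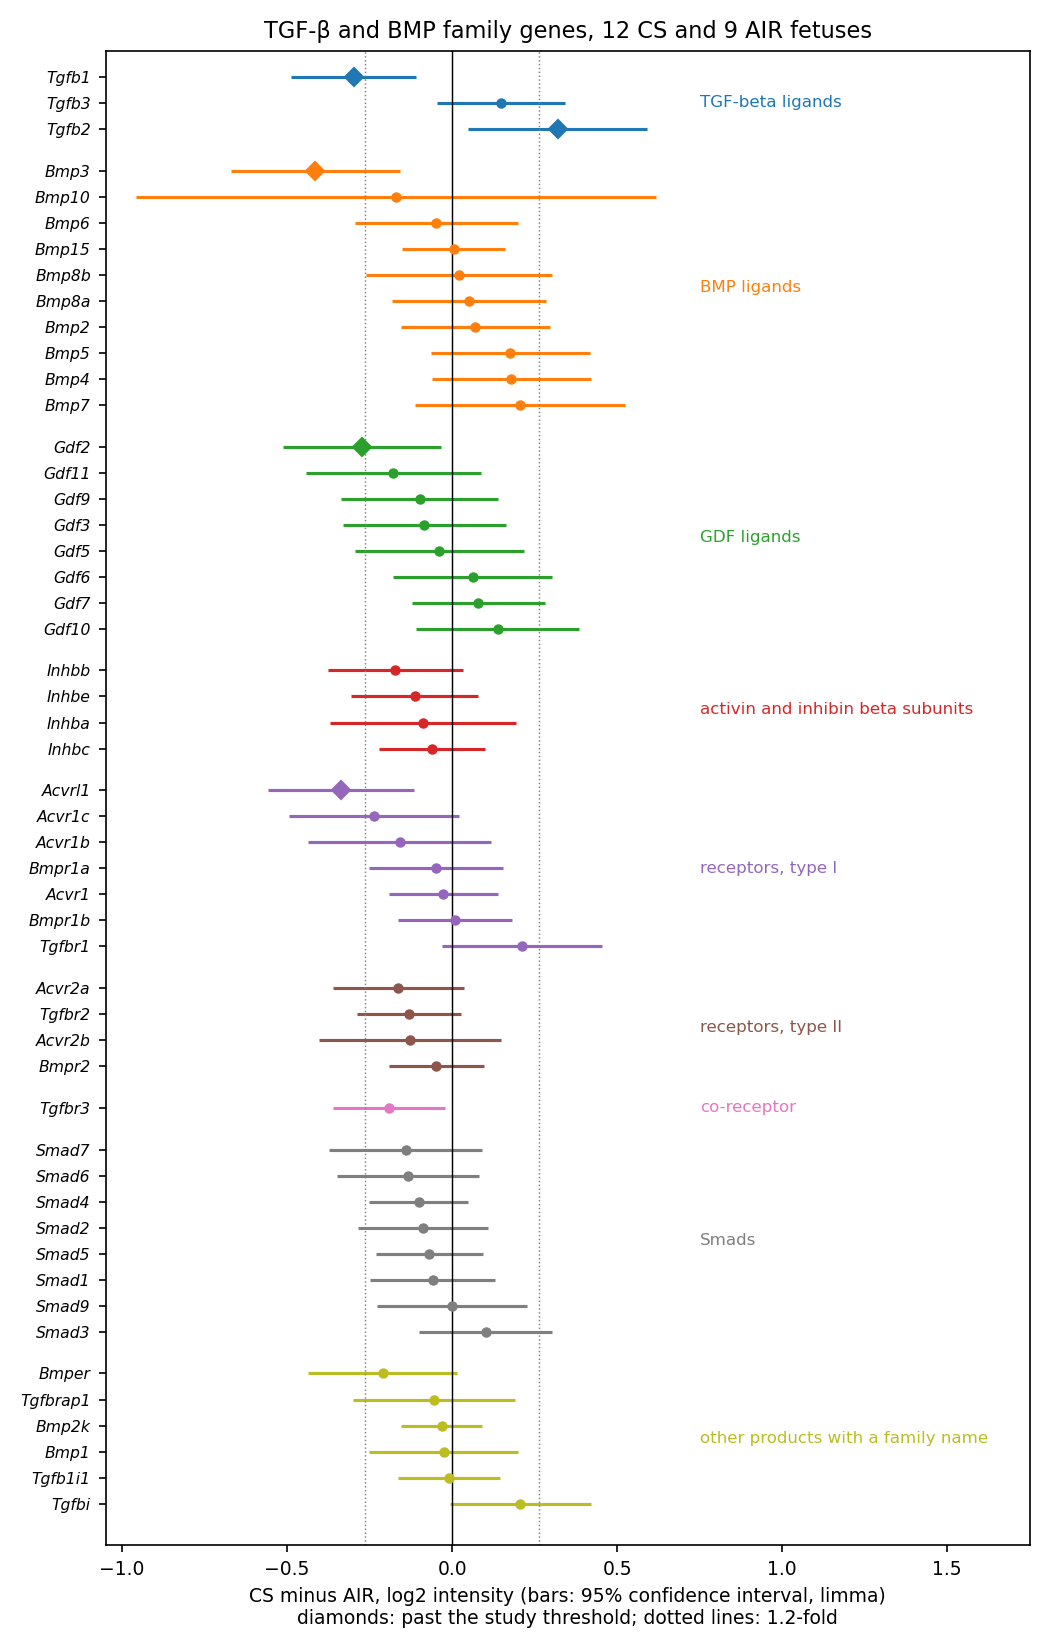
CS minus AIR difference in log2 intensity for each of the 51 genes, grouped and coloured by role. Bars are 95% confidence intervals from limma, dotted lines mark a 1.2-fold difference, and the 5 diamonds mark Tgfb2, higher by 0.32, and Tgfb1, Bmp3, Gdf2 and Acvrl1, lower by the study threshold.

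Tgfb1 and Tgfb2 were the ligands that lay on opposite sides, and the sequence around a RefSeq start of each is given here. The windows from 250 bases before to 50 bases after the start are shown for both from RefSeq (GRCm38.p6), 5′ to 3′ on the strand of the gene, because these are the only family ligands of this subgroup past the threshold.
Tgfb1, chr7:25686752-25687051, plus strand: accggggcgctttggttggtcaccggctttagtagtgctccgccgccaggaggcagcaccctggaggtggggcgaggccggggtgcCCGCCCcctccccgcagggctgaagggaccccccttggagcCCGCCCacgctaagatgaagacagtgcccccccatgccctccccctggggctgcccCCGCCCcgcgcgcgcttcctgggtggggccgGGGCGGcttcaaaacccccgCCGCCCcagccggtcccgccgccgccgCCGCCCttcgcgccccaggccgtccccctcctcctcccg
Tgfb2, chr1:186705940-186706239, minus strand: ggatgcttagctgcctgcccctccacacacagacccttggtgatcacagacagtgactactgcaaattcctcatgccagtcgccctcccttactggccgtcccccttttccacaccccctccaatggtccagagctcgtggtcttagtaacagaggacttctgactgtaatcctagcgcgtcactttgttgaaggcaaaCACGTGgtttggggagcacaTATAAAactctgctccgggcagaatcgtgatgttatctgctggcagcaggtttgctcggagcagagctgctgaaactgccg
Capitals mark GGGCGG, the GC box, on either strand in Tgfb1, and TATAAA and CACGTG, an E-box, in Tgfb2. The Tgfb1 window holds 6 GC boxes and no TATAAA, and the Tgfb2 window holds 1 TATAAA, 1 CACGTG and no GC box. Of 32851 RefSeq promoter windows of this length, 35.7% hold GGGCGG, 13.6% hold TATAAA and 7.15% hold CACGTG on either strand. These matches describe letters and not binding, and a link to the direction of the differences was not tested. The Tgfb2 window lies inside the annotated span of the gene (186622787 to 186709697), so its start is not the outermost one.

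Tgfb1, the TGF-β ligand best known from immune cells, platelets and endothelium, was lower in CS-exposed lungs. Its log2 intensity ranged from 4.86 to 5.51 with a median of 5.24 in the 12 CS lungs, and from 5.23 to 5.71 with a median of 5.48 in the 9 AIR lungs. The groups overlapped, but 11 of 12 CS lungs lay below the AIR mean and 5 lay below every AIR lung. Mean values were 5.21 ± 0.22 (SD, n = 12) in the CS group and 5.51 ± 0.17 (SD, n = 9) in the AIR group, a difference of -0.30 with a standard error of 0.09 (limma adjusted p = 0.468, exact permutation p = 0.0037). Within females the difference was -0.30 (exact permutation p = 0.119) and within males -0.29 (exact permutation p = 0.0238).

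Tgfb2, a ligand that mice need for normal heart and lung formation, was higher. CS lungs ranged from 5.83 to 6.90 with a median of 6.42 and AIR lungs from 5.55 to 6.52 with a median of 6.09. Of the 12 CS lungs, 10 lay above the AIR mean and 5 above every AIR lung. Means were 6.39 ± 0.32 (SD, n = 12) and 6.07 ± 0.29 (SD, n = 9), a difference of 0.32 with a standard error of 0.13 (limma adjusted p = 0.585, exact permutation p = 0.0291). The call was lost without AIR male 1, the lowest AIR lung at 5.55, with a difference of 0.25, and also with the range of animal numbers as a block, at 0.27 (limma p = 0.0626). Tgfb3, the third ligand, lay at 4.55 ± 0.18 (SD, n = 12) in the CS group and 4.40 ± 0.24 (SD, n = 9) in the AIR group, a difference of 0.15 (95% interval -0.05 to 0.34).

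**Figure D2:**
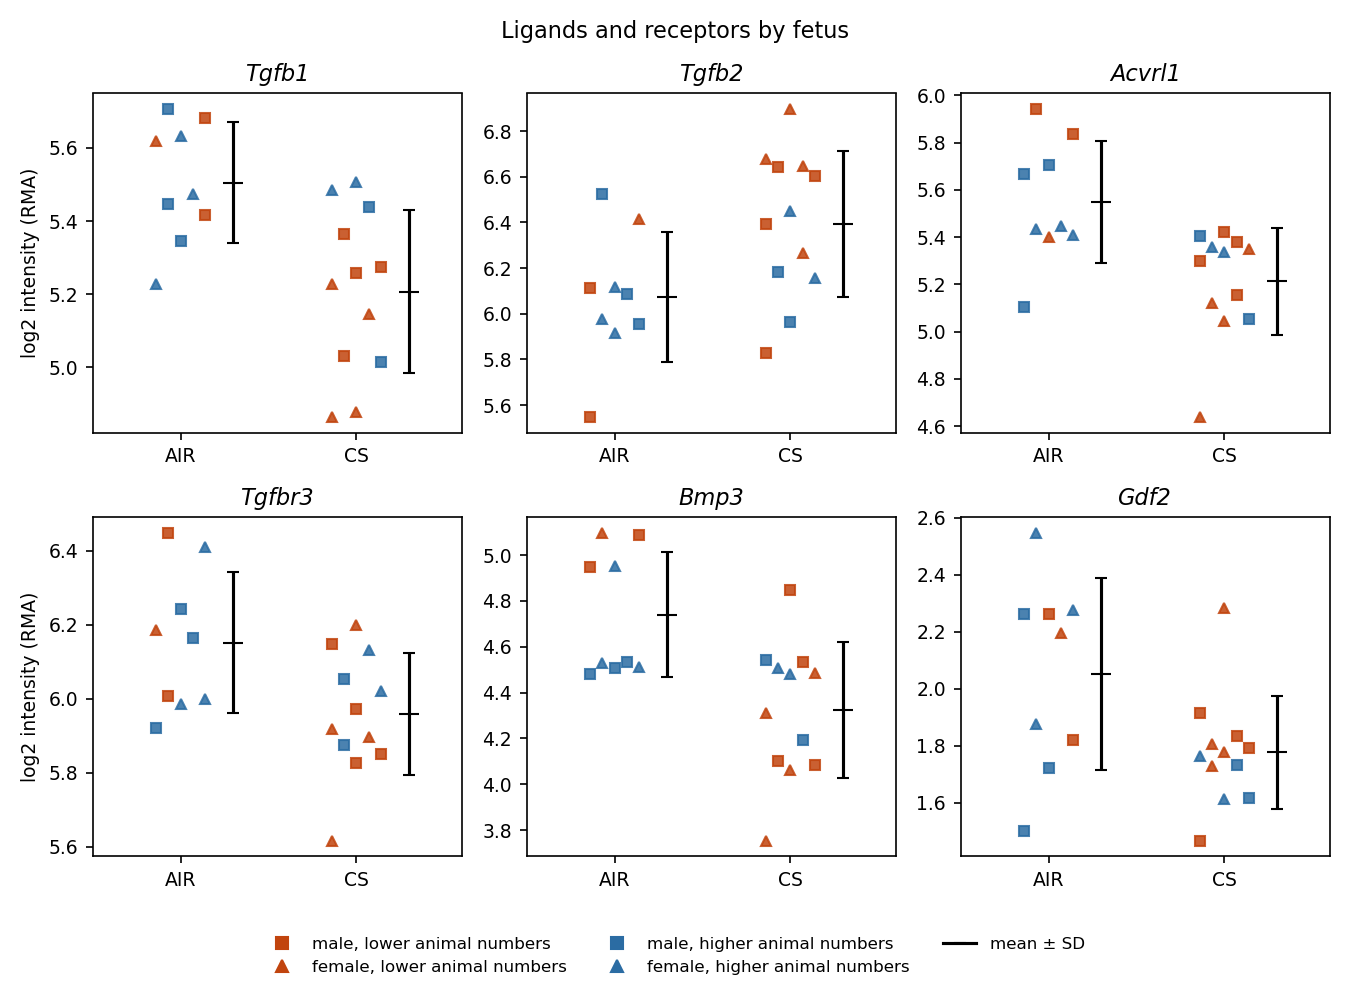
Log2 intensity of Tgfb1, Tgfb2, Acvrl1, Tgfbr3, Bmp3 and Gdf2 in each fetus, with AIR and CS groups side by side, the sex given by the symbol, the range of animal numbers by the colour, and the mean ± SD beside each group. Groups overlap in every panel, and for Acvrl1 all 12 CS lungs lie below the AIR mean of 5.55.

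Bmp3, an atypical BMP that antagonizes other BMPs, had the largest difference among the 51 genes. CS lungs ranged from 3.75 to 4.85 with a median of 4.40, and AIR lungs from 4.48 to 5.10 with a median of 4.53. Of the CS lungs, 7 lay below every AIR lung and 11 below the AIR mean. Means were 4.32 ± 0.30 (SD, n = 12) in the CS group and 4.74 ± 0.27 (SD, n = 9) in the AIR group, a difference of -0.41 with a standard error of 0.12 (limma adjusted p = 0.459, exact permutation p = 0.00358). The 9 other BMP ligands passed no threshold. Bmp4 differed by 0.18 (95% interval -0.06 to 0.42), Bmp5 by 0.18 (95% interval -0.07 to 0.42), Bmp7 by 0.21 (95% interval -0.11 to 0.52) and Bmp2 by 0.07 (95% interval -0.15 to 0.30). These 4 are the BMP ligands best known from lung branching and mesenchyme, and the intervals admit differences in either direction. Without AIR male 5, the highest AIR lung for Bmp7 at 4.11, Bmp7 passed the threshold at 0.31.

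Gdf2, which encodes BMP9, a circulating ligand of ALK1 made mostly in liver, was lower at the study threshold but dim. CS lungs ranged from 1.46 to 2.28 with a median of 1.77 and AIR lungs from 1.5 to 2.55 with a median of 2.19. The groups overlapped over most of their range. The difference was -0.27 with a standard error of 0.12 (limma adjusted p = 0.597, exact permutation p = 0.0305), and the call was lost when any of 8 arrays was left out in turn (males 2 and 6 and female 11 of the CS group, and males 1 and 4 and females 6, 7 and 8 of the AIR group), with the 21 values between -0.34 and -0.21. On the 9 arrays without high markers of heart, thymocytes, oesophagus or liver the difference was -0.52, but these hold 7 CS and 2 AIR arrays, too few to add weight to the call. Of the other GDF ligands, Gdf10, a close relative of Bmp3, differed by 0.14 and Gdf11, a regulator of axial patterning, by -0.18, both short of the threshold. The 4 activin and inhibin β subunits lay between -0.17 and -0.06, with Inhba at -0.09 (95% interval -0.37 to 0.19).

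Acvrl1, the gene of the endothelial type I receptor ALK1, was lower in all 12 CS lungs than the AIR mean. CS lungs ranged from 4.64 to 5.42 with a median of 5.32 and AIR lungs from 5.11 to 5.94 with a median of 5.45. AIR male 5, at 5.11, was the lowest AIR lung, and 6 AIR lungs lay above every CS lung. Means were 5.21 ± 0.23 (SD, n = 12) and 5.55 ± 0.26 (SD, n = 9), a difference of -0.34 with a standard error of 0.11 (limma adjusted p = 0.473, exact permutation p = 0.0034). The difference was -0.28 in females (exact permutation p = 0.0381) and -0.37 in males (exact permutation p = 0.039).

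No other receptor passed the study threshold. Tgfbr3, the co-receptor betaglycan that presents TGF-β2 to the signalling receptors, had an unadjusted p under 0.05 but a fold of 1.14. Its values were 5.62 to 6.2 with a median of 5.95 in CS and 5.92 to 6.45 with a median of 6.16 in AIR, and 6 CS lungs lay below every AIR lung. The difference was -0.19 with a standard error of 0.08 (limma adjusted p = 0.602, exact permutation p = 0.022). Tgfbr1, the type I receptor of TGF-β, differed by 0.21 (95% interval -0.03 to 0.46) and Tgfbr2, the type II receptor, by -0.13 (95% interval -0.29 to 0.03). The BMP receptors Bmpr1a and Bmpr2 both differed by -0.05, with 95% intervals of -0.25 to 0.15 and -0.19 to 0.10. All 4 type II receptors lay below 0, between -0.16 and -0.05.

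The Smads, which carry the signal to the nucleus, showed no call in either direction. Of the 8, 7 lay below 0, and the differences ran from -0.14 for Smad7 to 0.10 for Smad3. The receptor Smads of the BMP branch differed by -0.06 for Smad1 (95% interval -0.25 to 0.13) and -0.07 for Smad5 (95% interval -0.23 to 0.09), and the interval of Smad9 was -0.23 to 0.23. Smad2 differed by -0.09 (95% interval -0.28 to 0.11) and Smad4, the shared partner, by -0.10 (95% interval -0.25 to 0.05). The inhibitory Smads, both induced by the signals they damp, differed by -0.13 for Smad6 (95% interval -0.35 to 0.08) and -0.14 for Smad7 (95% interval -0.37 to 0.09). All 8 intervals lie within a 1.5-fold difference, and those of Smad2, Smad3, Smad6 and Smad7 reach past a 1.2-fold difference.

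Among the 6 other products with a family name none passed the threshold. Tgfbi, a matrix protein induced by TGF-β, had the highest of these differences at 0.21 (limma adjusted p = 0.679), and Bmper, a secreted BMP-binding protein of endothelium, the lowest at -0.21 (limma adjusted p = 0.696). Tgfb1i1, which encodes the focal adhesion adaptor Hic-5 of smooth muscle, lay at 6.65 ± 0.15 (SD, n = 12) in the CS group and 6.66 ± 0.17 (SD, n = 9) in the AIR group.

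Marker levels of cell types moved between the groups as well. The mean of 6 endothelial markers ranged from 6.0 to 6.63 in CS and from 6.26 to 7.01 in AIR, with all 6 genes lower on average in CS, from Pecam1 at -0.11 to Car4 at -0.90. Alveolar type II markers ranged from 7.35 to 8.51 in CS and from 8.09 to 8.74 in AIR, and all 8 were lower on average. Markers of dividing cells ranged from 5.64 to 6.68 in CS and from 4.94 to 6.12 in AIR, and all 7 were higher on average. With the endothelial mean as a covariate, chosen after seeing the data, the differences were -0.16 for Acvrl1, -0.17 for Tgfb1, -0.20 for Bmp3, 0.13 for Tgfb2 and -0.27 for Gdf2, and none of these 5 passed the threshold. Calls also fell over all 40543 probe sets, to 657 higher and 651 lower with this covariate from 900 and 889 without it. The part of type II and dividing cells in these differences was not tested.

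The other genes of the pathway were taken from 7 lists of 98 genes, of which 92 had a probe set. At the study threshold 4 were higher and 5 lower, beside 2.22% and 2.19% of all probe sets, and their median difference was -0.03, with 37 above 0 and 55 below 0. Thbs1 and Fbn2, both matrix proteins that act on latent TGF-β, had the largest rises of the lists. Thbs1 lay between 4.85 and 6.48 with a median of 5.62 in CS and between 4.87 and 5.70 with a median of 5.24 in AIR, a difference of 0.51 with a standard error of 0.18 (limma adjusted p = 0.516, exact permutation p = 0.014). Fbn2 lay between 6.25 and 7.32 in CS and between 5.45 and 6.93 in AIR, a difference of 0.43 with a standard error of 0.17 (limma adjusted p = 0.562, exact permutation p = 0.0258). The groups overlapped for both genes. Without AIR male 1 the call of Fbn2 was lost at 0.33. The remaining 15 of the 17 genes of latency and activation passed no threshold.

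Target genes were split. Of 15 targets of TGF-β, Acta2, the smooth muscle actin, was higher by 0.27, while the matrix genes Postn (-0.34), Fn1 (-0.29) and Eln (-0.29) were lower. The 4 smooth muscle markers, Acta2 among them, were split, with 2 higher and 2 lower on average in CS. Fn1, fibronectin, ranged from 9.09 to 9.94 in CS and from 9.60 to 10.3 in AIR (limma adjusted p = 0.494, exact permutation p = 0.00545). Of 9 targets of BMP, Tbx3, a transcription factor of lung mesenchyme, was lower by the threshold at -0.30, and 8 lay below 0 with a median of -0.19. Id4 (-0.23), Id3 (-0.20) and Hey1 (-0.19) had an unadjusted p under 0.05 with folds below 1.2. Over all probe sets 4.41% were called and 7.49% had an unadjusted p under 0.05, with a median difference of 0.000944. Id1, Id3, Id4, Hey1 and Msx2 were named after their values were seen. Id1, the textbook BMP target, differed by -0.11 and Msx2 by 0.11. Leaving out 1 array at a time, the call was lost for Acta2 in 9 of 21 fits (without CS male 5 or 6, CS female 7, 8 or 9, AIR male 2 or 4, or AIR female 6 or 8, with values down to 0.23), for Postn in 5 (without CS male 3, CS female 7 or 10, or AIR male 2 or 3, up to -0.28), for Eln in 4 (without CS male 3, CS female 7 or 9, or AIR female 9, up to -0.24), for Tbx3 in 3 (without CS female 7 or AIR male 2 or 4, up to -0.25) and for Fn1 in 2 (without CS female 7 or AIR male 1, up to -0.24). Among 22 Smad partners and regulators, Tgif1, a repressor of Smad2 and Smad3 output, was higher by 0.33 (exact permutation p = 0.0155) and Ski, another such repressor, was lower at -0.28 (exact permutation p = 0.0299). Tgif1 kept its call in all 21 such fits, while that of Ski was lost in 7 (without CS male 5, CS female 7, 8 or 9, AIR male 2 or 4, or AIR female 7, up to -0.23), with the range of animal numbers as a block (-0.26) and with the heart mean as a covariate (-0.25). None of the 17 secreted antagonists and binding proteins, 6 other ligands and 6 co-receptors passed the threshold.

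**Figure D3:**
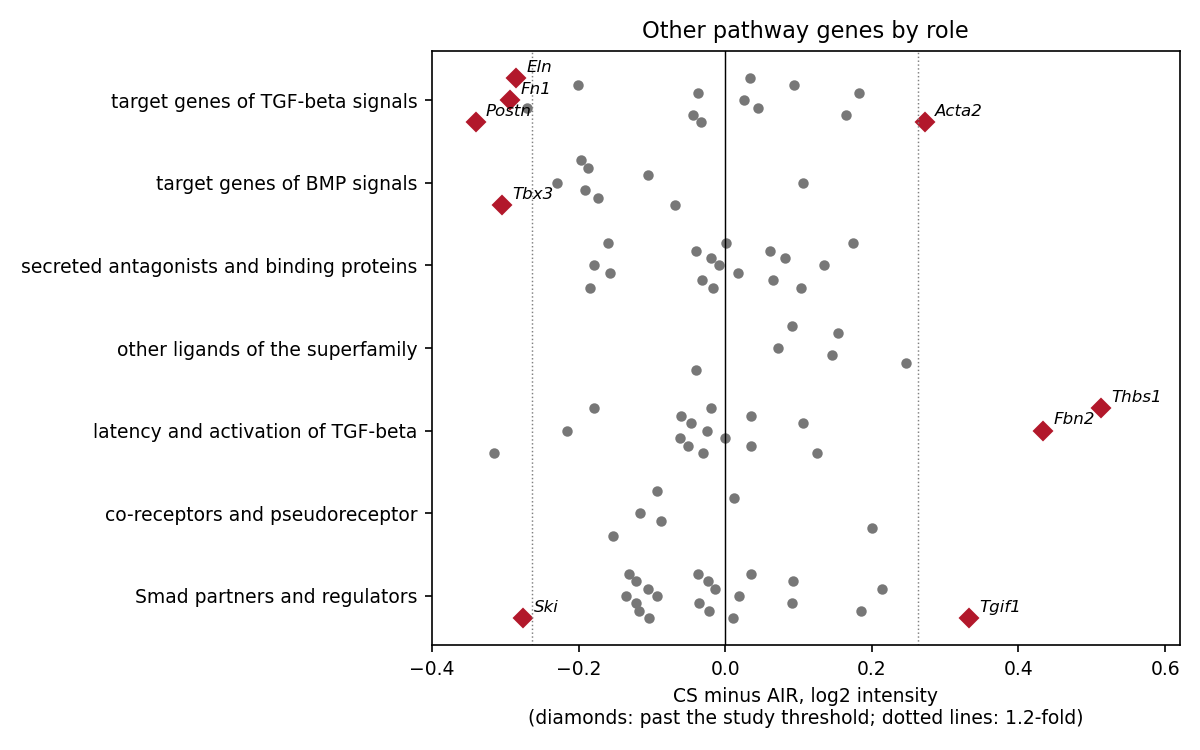
CS minus AIR difference in log2 intensity of 92 other genes of the pathway, one point per gene, in rows by role. Diamonds mark the 9 genes past the study threshold, with Thbs1 (0.51) and Fbn2 (0.43) farthest to the right, and dotted lines mark a 1.2-fold difference.

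The sexes were compared in a fit with a mean for each sex and exposure. In females 2 genes were higher and 4 lower at the study threshold, against 5.38% of all probe sets (2.49% higher and 2.89% lower). Tgfb2 (0.41) and Tgfb3 (0.30) were higher, and Bmp3 (-0.51), Gdf2 (-0.40), Inhbe (-0.31) and Tgfb1 (-0.30) were lower, with limma adjusted p of 0.823 and above. Inhbe was dim, with means of 1.40 in CS and 1.70 in AIR females near that of the oocyte ligand Bmp15, 1.36 over all arrays. In males none was higher and 3 were lower, against 4.91% of all probe sets (2.52% higher and 2.39% lower), namely Smad6 (-0.38), Acvrl1 (-0.37) and Tgfb1 (-0.29), with limma adjusted p of 0.857 and above. The difference of the CS effect between the sexes had an unadjusted p under 0.05 for 1 of the 51 genes, Smad6, beside 4.41% of all probe sets.

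Smad6, the inhibitor that acts chiefly on BMP receptors, was lower in CS than in AIR males without overlap. CS males lay at 2.76, 2.87, 2.90, 2.96, 2.99 and 3.01, and AIR males at 3.08, 3.18, 3.31, 3.45 and 3.46. The exact permutation p of 0.00216 is the smallest that 6 and 5 males allow. For males, the share of all probe sets without overlap is not given here. In females the groups overlapped, with CS females at 2.81, 2.84, 3.07, 3.20, 3.29 and 3.51 and AIR females at 2.64, 2.99, 3.02 and 3.24, a difference of 0.15 (exact permutation p = 0.39). The CS effect in males minus that in females was -0.53 with a standard error of 0.19 (limma p = 0.0103, adjusted p = 1.0). The Smad6 window around its start is shown because it holds the palindromic Smad element GTCTAGAC, in capitals, which 0.213% of the RefSeq promoter windows hold (GRCm38.p6).
Smad6, chr9:64022010-64022309, minus strand: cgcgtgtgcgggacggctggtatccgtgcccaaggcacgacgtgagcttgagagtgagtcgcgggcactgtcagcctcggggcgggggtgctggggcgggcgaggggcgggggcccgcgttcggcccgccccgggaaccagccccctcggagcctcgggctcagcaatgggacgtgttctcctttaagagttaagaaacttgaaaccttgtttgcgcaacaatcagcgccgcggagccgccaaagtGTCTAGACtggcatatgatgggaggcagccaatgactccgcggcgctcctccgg
Windows were at hand for 36 of the 51 genes, and Smad6 was the single one of these with the palindrome. The match describes letters and not binding, and a link to the Smad6 values was not tested. The annotated span of Smad6 (63953076 to 64022085) reaches beyond this start, so it is not the outermost one.

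Differences were also taken within each range of animal numbers, in a fit with a mean for each range and exposure. In the lower range, with 8 CS and 3 AIR lungs, 4 genes were higher and 7 lower at the study threshold, against 8.25% of all probe sets (3.38% higher and 4.87% lower). The share of all probe sets without overlap between the groups in this range is not given here. In the higher range, with 4 CS and 6 AIR lungs, none was higher and 1 was lower, against 4.27% of all probe sets (2.36% higher and 1.91% lower). The difference of the CS effect between the ranges had an unadjusted p under 0.05 for 4 of the 51 genes, Bmp3, Gdf11, Bmp7 and Tgfb1i1, beside 6.76% of all probe sets, with adjusted p from 0.576 to 0.734.

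Bmp3 passed a false discovery rate of 10% in the lower range (limma adjusted p = 0.0395), as did 1.05% of all probe sets there. The 8 CS lungs lay at 3.75, 4.06, 4.08, 4.10, 4.31, 4.48, 4.53 and 4.85, all below the AIR lungs at 4.95, 5.09 and 5.10. The difference was -0.77 with a standard error of 0.17, and the exact permutation p of 0.00606 is the smallest that 8 and 3 lungs allow. Any littermates in this range were treated as independent. In the higher range the 4 CS lungs at 4.19, 4.48, 4.51 and 4.54 overlapped the AIR lungs, which lay between 4.48 and 4.95, a difference of -0.16 (exact permutation p = 0.324).

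At the lower numbers the BMP ligands Bmp4 and Bmp7 were higher. Bmp7, known from kidney and eye formation and also expressed in lung, lay between 3.18 and 4.11 in CS and between 2.68 and 3.12 in AIR, without overlap, a difference of 0.59 (limma adjusted p = 0.345, exact permutation p = 0.0182). At the higher numbers the difference of Bmp7 was -0.04 (exact permutation p = 0.871). For Bmp4 the differences were 0.45 (exact permutation p = 0.0424) and -0.04 (exact permutation p = 0.786), and the difference between the ranges, 0.49, had an unadjusted limma p of 0.05 that was not under the limit. Gdf11 was lower at the lower numbers, with CS lungs from 2.41 to 3.03 and AIR lungs from 3.03 to 3.70, a difference of -0.50 (exact permutation p = 0.0121), and differed by 0.12 at the higher numbers. Tgfb1i1 differed by -0.21 and 0.15 in the ranges.

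Tgfb1 and Acvrl1 lay on the same side of 0 in both ranges, with smaller values at the higher numbers. Tgfb1 differed by -0.44 at the lower numbers (exact permutation p = 0.0121) and by -0.11 at the higher (exact permutation p = 0.438). The lower-range lungs did not overlap, with CS from 4.86 to 5.36 and AIR from 5.42 to 5.68. Acvrl1 differed by -0.55 (exact permutation p = 0.0121) and -0.17 (exact permutation p = 0.157), and Tgfb2 by 0.47 (exact permutation p = 0.103) and 0.09 (exact permutation p = 0.514). For none of these 3 did the effect differ between the ranges at an unadjusted p under 0.05. The other genes past the threshold at the lower numbers were Tgfbi (0.42), Bmper (-0.38), Tgfbr3 (-0.29) and Tgfbr2 (-0.27), and the call at the higher numbers was Smad7 (-0.35).

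Cell type markers also differed between the groups in the lower range. There the endothelial mean lay between 6.0 and 6.51 in CS and between 6.78 and 7.01 in AIR, and the type II mean between 7.35 and 8.30 and between 8.66 and 8.74. Type I means (6.58 to 7.04 in CS, 7.06 to 7.24 in AIR) and club cell means (6.35 to 7.35 in CS, 7.78 to 8.13 in AIR) were also lower in CS without overlap, and the mean of dividing cells was higher without overlap (5.74 to 6.68 in CS, 4.94 to 5.37 in AIR). At the higher numbers the endothelial means were 6.32 to 6.63 in CS and 6.26 to 6.71 in AIR. The part of these markers in the differences by range was not tested.

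**Figure D4:**
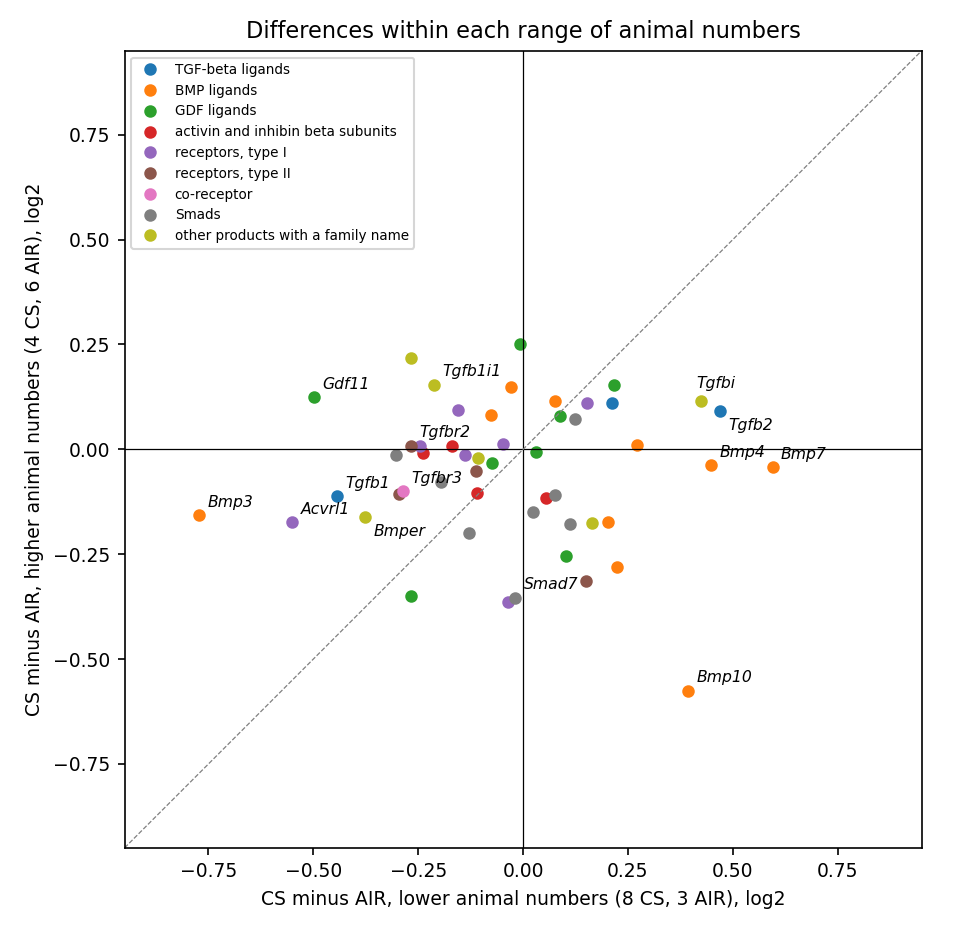
CS minus AIR difference in log2 intensity at the lower animal numbers (x axis, 8 CS and 3 AIR lungs) against the higher animal numbers (y axis, 4 CS and 6 AIR lungs) for the 51 genes, coloured by role, with the line of equal differences dashed. Bmp3 lies at -0.77 and -0.16, Bmp7 at 0.59 and -0.04.

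In the other pathway genes 4 were higher and 10 lower at the lower numbers, beside 3.38% and 4.87% of all probe sets, and none at the higher, beside 4.27% in either direction. Fbn2 (0.998, limma adjusted p = 0.0327), Fn1 (-0.58, limma adjusted p = 0.0486) and Tbx3 (-0.63, limma adjusted p = 0.0729) passed a false discovery rate of 10% at the lower numbers. At the higher numbers Fbn2 differed by -0.10, Fn1 by -0.02 and Tbx3 by 0.06. Of the 6 genes in the list of co-receptors, 1 was higher and 1 lower at the lower numbers, with differences from -0.32 to 0.40. Eng, the co-receptor endoglin of endothelium that works with ALK1, was named after its values were seen. It was lower at the lower numbers at -0.32 and differed by 0.15 at the higher.

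Bmp10, a ligand of the developing heart that also binds ALK1, had the widest spread of the 51 genes. It lay between 1.40 and 4.03 with a median of 1.78 in CS and between 1.2 and 4.79 with a median of 1.80 in AIR, a difference of -0.17 (95% interval -0.96 to 0.62). The 3 highest arrays were AIR male 3 at 4.79, CS female 8 at 4.03 and AIR male 5 at 3.26, and the mean of 10 heart muscle markers was 7.43, 7.36 and 6.65 on these arrays, against a range of 4.34 to 7.43 over all 21. CS male 4, with Bmp10 at 2.80, had the lowest heart marker mean at 4.34. AIR male 2 and CS male 6 had heart marker means of 6.88 and 7.06 with Bmp10 at 2.09 and 2.45. With the heart mean as a covariate Tgfb1, Tgfb2, Acvrl1, Bmp3 and Gdf2 kept their calls, with differences of -0.29, 0.32, -0.39, -0.43 and -0.31.

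**Figure D5:**
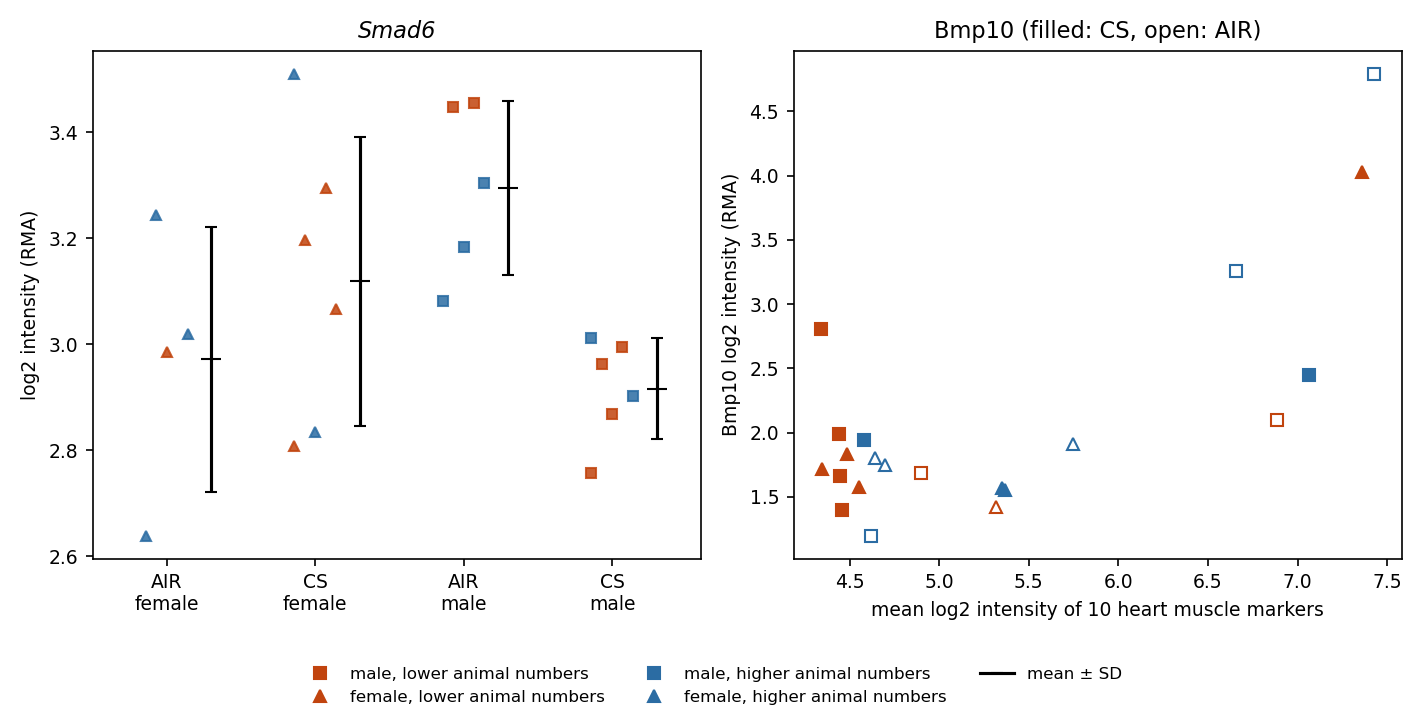
Left, log2 intensity of Smad6 in AIR and CS lungs of each sex with the mean ± SD. Right, Bmp10 log2 intensity against the mean log2 intensity of 10 heart muscle markers on each of the 21 arrays, where AIR male 3 (4.79) and CS female 8 (4.03) stand highest.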

How the data were processed

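The authors hybridized lung RNA to Affymetrix arrays, 1 fetus per array, and deposited log2 intensities made by RMA in Affymetrix Expression Console 1.3.0.187. Detection calls and raw scans were not used here. Of 41345 probe sets, 802 redundant ones were removed, and the remaining 40543 were fitted with lmFit and eBayes (limma 3.58.1, R 4.3.3) for CS against AIR with the sexes merged, as in the study, and with a mean for each sex or number range and exposure. P-values were adjusted by the Benjamini-Hochberg method over these probe sets. Exact permutation tests used Python 3.11.15 over 293930 regroupings of all fetuses, 210 of females, 462 of males, and 165 and 210 within the lower and higher ranges. Groups came from the sample labels. The fits were tested on simulated arrays. Pairs of arrays, within and between the groups, correlated at 0.950 to 0.971, and depth has no counterpart on arrays.

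Members and lists were chosen with earlier results of these data known. Named genes were those past the study threshold or with an unadjusted p under 0.05 for a difference between sexes or ranges, well-known lung genes of the family, Bmp10, and listed pathway genes past the threshold. Inhbe, Bmper, Tgfbi, Eng, Id1, Id3, Id4, Hey1 and Msx2 were named after their values were seen. Alternatives changed the probe sets, normalization, variance model, array weights, covariates, blocks, threshold and arrays included.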

Additional observations from a re-analysis of the deposited data

Results flagged for a closer look

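Of 37 genes checked for an AIR array apart from the other 8, 3 had one, and chance flags about 1 in 20 groups. Smad3 was 4.41 in AIR male 5, and the other AIR lungs lay between 4.75 and 5.09. Bmpr1a was 5.18 in AIR male 2, and the others lay between 4.52 and 4.82. Eln was 9.15 in AIR female 9, and the others lay between 8.59 and 8.87. AIR male 5 and AIR male 2 also had high heart muscle markers, AIR male 5 high oesophagus markers, and AIR female 9 high thymocyte markers. Of the 9 AIR arrays, however, 2 alone were without high markers of other tissue, and a link to these values was not tested.

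The CS effect on Smad6 differed between the sexes, by -0.53 as male minus female (limma p = 0.0103, adjusted p = 1.0). It differed between the ranges of animal numbers, as lower minus higher, by -0.62 for Bmp3 (p = 0.0158, adjusted p = 0.576), 0.64 for Bmp7 (p = 0.0475, adjusted p = 0.734), -0.62 for Gdf11 (p = 0.0204, adjusted p = 0.617) and -0.37 for Tgfb1i1 (p = 0.0191, adjusted p = 0.605), all by limma. The 9 arrays without high markers of heart, thymocytes, oesophagus or liver hold 1 AIR array of each sex and of each range, and therefore settle none of these differences. Leaving out 1 array at a time, the difference between ranges lost this limit in 12 of 21 fits for Bmp7, with values from 0.51 to 0.73, and for Gdf11 without CS male 5 (-0.52) or AIR female 6 (-0.44).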

How the results depend on the processing

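Bmp3, Tgfb1 and Acvrl1 kept their calls whichever of the 21 arrays was left out, with differences from -0.46 to -0.36, -0.33 to -0.27 and -0.39 to -0.28. Of the 51 genes, the 1 call higher became 0 with the number range as a block, with the endothelial mean as a covariate, without the 12 arrays with high markers of heart, thymocytes, oesophagus or liver, in males only, at the higher numbers only, with a 1.5-fold limit and at p under 0.01 with no fold limit, and 3 at the lower numbers only. The 4 calls lower became 2 in females only, and 0 at the higher numbers only and with a 1.5-fold limit. A like count was not always the same genes: the 3 lower with the endothelial covariate held none of Bmp3, Tgfb1, Acvrl1 and Gdf2, Tgfb1 and Acvrl1 lost their calls without those 12 arrays (-0.32 and -0.28), Bmp3 and Gdf2 in males only, and Gdf2 with the replicate block and at the lower numbers only. Leave-one-out fits gave 0 to 2 higher (0 without AIR male 1, 2 without AIR male 5), 3 to 5 lower, a median of -0.07 to -0.04 and 0 to 0 calls at a false discovery rate of 10%. Over all probe sets these fits called 809 to 1015 higher and 793 to 1046 lower. Fits to 1 sex or range alone use their own spread, so that their counts differ from those of the fits with all arrays.

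Of the other pathway genes, the 4 higher became 2 with the endothelial covariate, 0 in males only, at the higher numbers only and with a 1.5-fold limit, and 1 at p under 0.01. The 5 lower became 2 with the range block, the endothelial covariate, females only, males only or p under 0.01, 3 without the same 12 arrays, 9 at the lower and 1 at the higher numbers, and 0 with a 1.5-fold limit. At the same settings the counts over all probe sets are those given above, with 657 higher and 651 lower for the endothelial covariate. Their median was -0.074 at the lower and 0.017 at the higher numbers, where Fbn2 (-0.10) and Tbx3 (0.055) changed sign. Leave-one-out fits gave 3 to 4 higher, 0 to 6 lower (0 without CS female 7; 3 without CS male 3, CS female 9, AIR male 2 or AIR male 4), a median of -0.04 to -0.02 and 0 to 0 calls at a false discovery rate of 10%. Array weights gave 2 genes with a sex difference in place of 1. Leave-one-out fits gave 1 to 4 (3 without CS female 8, CS female 12, AIR male 2 or AIR female 8, 4 without AIR female 9), and 3 to 7 with a range difference (7 without AIR female 6). Over all 40543 probe sets, array weights gave 1797 with an unadjusted p under 0.05 for a sex difference. Leave-one-out fits gave 1681 to 1999 there, and 2368 to 2906 for a range difference.

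A replicate block was fitted over the 18 arrays whose numbers 1 to 9 occur in both groups. Same-numbered arrays showed little shared deviation (correlations -0.072 to 0.132, 1 AIR array closest to its own number), which cannot exclude a weak pairing. Number 6 is a male in the CS group and a female in the AIR group, and the labels name no pairs. The block gave 1 higher and 3 lower of the 51 genes and 4 higher and 6 lower of the other pathway genes. Over all 40543 probe sets it gave 1070 higher and 1143 lower, beside 900 and 889 in the main fit.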
